A study of Homo sapiens with 6 samples.

Results

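Thymidylate synthase (TS), encoded by TYMS, and 5 further enzymes that make or guard the thymidylate pool were followed in RNA from TS immunoprecipitates and from control beads of HCT116-UGI cells. The 6 genes TYMS, SHMT1, SHMT2, TK1, DTYMK and DUT were chosen by name, and each had 1 entry among the 42822 entries of the expression table. HCT116-UGI is a human colon adenocarcinoma line that lacks mismatch repair and carries UGI, a protein that blocks the uracil-DNA glycosylase UNG, so that all groups, the control included, were repair deficient in both ways. Cells were left without treatment (NT), or received 100 nM raltitrexed (RTX), an antifolate TS inhibitor, or 20 µM 5-fluoro-2′-deoxyuridine (5FdUR), a nucleoside whose phosphorylated form binds TS covalently, for 48 h. From each lysate 1 library was made of the RNA on antibody-free pre-clearing beads (RIPctr) and 1 of the RNA that an anti-TS antibody then precipitated (TS-RIP). This gave 6 libraries and no biological replicate of a treatment, and both libraries of a treatment came from the same culture.

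TS transfers a methyl group from methylenetetrahydrofolate to dUMP and makes dTMP, the precursor of dTTP. Serine hydroxymethyltransferases (SHMT1, SHMT2) regenerate the folate that TS uses, thymidine kinase 1 (TK1) salvages thymidine to dTMP, thymidylate kinase (DTYMK) carries dTMP on to dTDP, and dUTPase (DUT) removes dUTP and supplies dUMP. TS is also an RNA-binding protein that can bind its own mRNA and hold back its translation, and ligands of TS are known to interfere with that binding.

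The sequences shown first are those that bear on TS as an RNA-binding protein and on the promoters of the 6 genes. On GRCh38, TYMS lies at chr18:657653-673578 on the plus strand, and its longest transcript has 7 exons and 1613 nt. One of the places where TS is known to bind its own mRNA is a hairpin that includes the start codon. The 30 nt around that codon, in capitals, lie in exon 1 at chr18:657728-657757 and are given here from the GENCODE 44 transcript, 5′ to 3′ and in DNA letters.
TYMS start codon: cccgcccgccgcgccATGcctgtggccggc

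Promoter sequences (RefSeq, GRCh38.p14, 250 bases before to 50 after an annotated start) were matched for 5 of the 6 members, with 9 entries in all, since TK1 had 2 annotated starts and DUT 4. SHMT2 is named only. Both strands were searched for 8-base E2F letters (TTTCCCGC, TTTGGCGC, TTTCGCGC or TTTGCCGC), for the CCAAT box (CCAAT) and for the GC box (GGGCGG), none of which overlapped another in the windows printed. E2F factors and the CCAAT-binding factor NF-Y are known regulators of S phase genes. An E2F match was present in 1164 of 35116 promoters (3.31%), and TYMS and DUT were the members with one. Their shared letters, GCGGGAAA as read on the coding strand, were found with their reverse complement in 1.63% of promoters. In TYMS the match began 39 bases before the start. In DUT it began 42 bases before the most downstream of the 4 starts, with TTTGGCGC at 27 bases before it. The matches are in capitals in the windows chr18:657573-657652 (TYMS, plus strand) and chr15:48332151-48332180 (DUT, plus strand).
TYMS upstream: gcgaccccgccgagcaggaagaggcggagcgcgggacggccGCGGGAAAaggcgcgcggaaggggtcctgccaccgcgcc
DUT upstream: gctgGCGGGAAAtttcggtTTTGGCGCgct

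The CCAAT letters were found in 34.6% of promoters and in those of SHMT1, TK1 and DTYMK. They are in capitals, or as ATTGG where they lie on the other strand, in the windows chr17:18363564-18363643 (SHMT1), chr17:78187083-78187112 (TK1) and chr2:241686822-241686851 (DTYMK), all of genes on the minus strand and printed 5′ to 3′ on it. A GC box was found in 45.0% of promoters and in 7 of the 9 entries of the members, TYMS having none. These matches describe letters in a window and were not tested for binding.
SHMT1 upstream: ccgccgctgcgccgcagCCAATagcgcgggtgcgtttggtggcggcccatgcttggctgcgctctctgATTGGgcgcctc
TK1 upstream: ggggccggctcgtgATTGGccagcacgccg
DTYMK upstream: tgttgacgccggCCAATgggagctccggaa

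Libraries held 7051104 to 11657293 fragments. Values are scaled fragment counts, in which 1 fragment was worth 85.0 to 136.3 depending on the library, and they are not divided by gene length. The 6 genes were counted with 178 to 3236 fragments per library, and brackets give 95% exact counting intervals, which cover counting error only. Of 8 colon epithelial markers 7 had a mean above 500, with a sum of 6414870 to 10222700 per library, and VIL1 did not. Of 10 markers of fibroblasts, blood, endothelium and liver 3 had a mean above 500 (PDGFRA, COL1A1 and VWF), the sum of all 10 was 106155 to 195704, and HBB was at 0 in all 6 libraries. In NT RIPctr PDGFRA (167437) lay above the epithelial markers EPCAM (109991), CDH1 (48214) and CDX2 (16983), and below KRT8, KRT18 and KRT19. In every other library PDGFRA lay below EPCAM. With bulk RNA, fewer cells with a transcript and less transcript per cell cannot be told apart.

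TYMS was read as 124239, 249763 and 194594 in the RIPctr libraries of NT, RTX and 5FdUR, and as 133199, 291883 and 200622 in the TS-RIP libraries in the same order. Both NT libraries were lowest, both RTX libraries highest and both 5FdUR libraries between them, without overlap. RTX over NT was 2.01-fold in RIPctr and 2.19-fold in TS-RIP, a log2 change of 1.01 [0.90, 1.12] and 1.13 [1.04, 1.22]. 5FdUR over NT was 1.57-fold and 1.51-fold, with log2 changes of 0.65 [0.53, 0.76] and 0.59 [0.50, 0.69]. TYMS was thus lower under 5FdUR than under RTX, by -0.36 [-0.46, -0.26] in RIPctr and -0.54 [-0.62, -0.46] in TS-RIP on the log2 scale.

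SHMT1, the cytosolic enzyme, at chr17:18327860-18363563 on the minus strand, was read as 68958, 77779 and 55871 in RIPctr and 74717, 82968 and 50729 in TS-RIP. Its 3 treatments did not overlap, with RTX highest and 5FdUR lowest. The log2 change was 0.17 [0.01, 0.34] and 0.15 [0.01, 0.29] for RTX, and -0.30 [-0.49, -0.12] and -0.56 [-0.72, -0.40] for 5FdUR, in RIPctr and TS-RIP. SHMT1 was the member whose 5FdUR libraries lay below those of NT.

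SHMT2, the mitochondrial enzyme, at chr12:57229573-57234935 on the plus strand, was read as 204481, 235452 and 231796 in RIPctr and 188960, 311830 and 271582 in TS-RIP. Both NT libraries were lowest, and the RTX and 5FdUR libraries overlapped. Here the fractions differed: RTX over NT was 0.20 [0.11, 0.30] on the log2 scale in RIPctr and 0.72 [0.64, 0.80] in TS-RIP. For 5FdUR over NT the change was 0.18 [0.08, 0.28] and 0.52 [0.44, 0.60]. The size of this difference depended on the scaling. With libraries scaled to the same total the changes were 0.31 and 0.62 for RTX, and 0.32 and 0.48 for 5FdUR.

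TK1, the cytosolic salvage kinase, at chr17:78174091-78187233 on the minus strand, was read as 111587, 155931 and 148943 in RIPctr and 120533, 201205 and 187267 in TS-RIP. NT was lowest in both fractions, and RTX and 5FdUR overlapped. The log2 change was 0.48 [0.36, 0.60] and 0.74 [0.64, 0.84] for RTX, and 0.42 [0.29, 0.54] and 0.64 [0.53, 0.74] for 5FdUR, in RIPctr and TS-RIP. With libraries scaled to the same total the fractions lay closer together, at 0.59 and 0.64 for RTX and 0.55 and 0.60 for 5FdUR.

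DTYMK, the next kinase of the pathway, at chr2:241675747-241686944 on the minus strand, was read as 22796, 30738 and 28889 in RIPctr and 34766, 37774 and 35879 in TS-RIP. The 3 treatments overlapped, since the NT TS-RIP library lay above both drug RIPctr libraries. The RTX change was 0.43 [0.16, 0.71] in RIPctr and 0.12 [-0.08, 0.32] in TS-RIP, and that of 5FdUR 0.34 [0.06, 0.63] and 0.05 [-0.16, 0.25], both log2.

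DUT, at chr15:48331011-48343373 on the plus strand, was read as 20289, 38454 and 32432 in RIPctr and 17426, 43941 and 32092 in TS-RIP. As for TYMS, NT was lowest, RTX highest and 5FdUR between them, without overlap. Full separation of the treatments was thus seen for TYMS, SHMT1 and DUT. The share of all genes with such a separation was not counted, so it cannot be called a trait of these genes. Shares for pairs of treatments are given below. RTX over NT was 1.89-fold in RIPctr and 2.51-fold in TS-RIP, a log2 change of 0.92 [0.65, 1.20] and 1.33 [1.09, 1.58]. 5FdUR over NT was 1.60-fold and 1.84-fold, or 0.67 [0.39, 0.97] and 0.88 [0.62, 1.14]. GENCODE 44 holds 8 annotated pseudogenes of DUT, 2 of TYMS and 1 of SHMT1. The study describes a filter for uniquely mapped reads. How far it left out fragments identical between a gene and its copy was not tested.

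**Figure D1:**
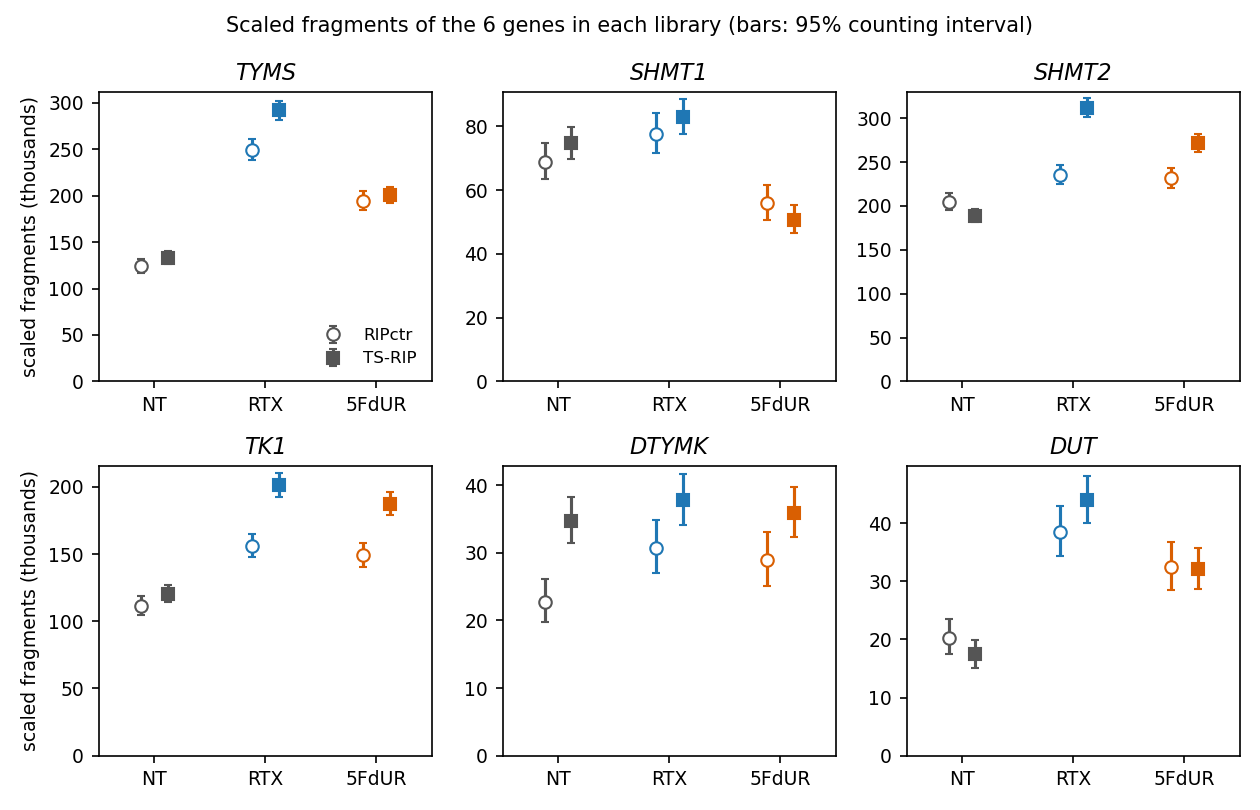
Scaled fragments (axis divided by 1000) of each gene in the 3 treatments, with open circles for RIPctr, filled squares for TS-RIP and bars for the 95% counting interval. TYMS runs from 124239 in NT RIPctr to 291883 in RTX TS-RIP, and SHMT1 is the gene with both 5FdUR libraries lowest.

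Which of these changes reached the size used for all genes was asked next, without a test, as each treatment was 1 culture. A gene was counted when its log2 change reached 1 in the same direction in both fractions. For RTX over NT, 1 of 6 members was counted as higher (TYMS) and 0 as lower, against 5.33% and 3.61% of 12425 genes. TYMS stood just past the threshold in RIPctr and DUT just short of it, with log2 changes of 1.01 and 0.92. In the random 50% subsample of the reads TYMS was at 0.94 in RIPctr and no member was counted. With all libraries scaled to the same total both TYMS and DUT were, at 1.11 and 1.02. At 1.5-fold TYMS and DUT were counted, against 14.2% of all genes. All 6 members were higher under RTX in both fractions, as were 39.8% of genes. Both RTX libraries lay above both NT libraries for 5 of 6 members, DTYMK being the exception, and for 33.3% of all genes. The median of the members was 0.46 in RIPctr and 0.73 in TS-RIP, beside -0.01 and -0.01 over all genes.

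For 5FdUR over NT, 0 of 6 members were counted in either direction, against 10.0% of 12502 genes as higher and 7.75% as lower. At 1.5-fold TYMS and DUT were counted as higher, against 20.3% of genes. In both fractions 5 members were higher than in NT, as were 43.0% of genes. Both 5FdUR libraries were above both NT libraries for 4 members (38.3% of genes) and below them for SHMT1 (36.3%). The median of the members was 0.38 in RIPctr and 0.56 in TS-RIP, and that of all genes was 0.02 in both fractions.

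All 6 members were lower under 5FdUR than under RTX in both fractions, as were 37.0% of 12487 genes, and 0 reached 2-fold (1.04% of genes higher, 0.352% lower). Counting intervals excluded 0 in both fractions for TYMS and SHMT1. For SHMT1 the log2 difference was -0.48 [-0.66, -0.30] in RIPctr and -0.71 [-0.87, -0.55] in TS-RIP, the latter at the 5.05th percentile of all genes. For DUT the difference was -0.25 [-0.50, 0.00] and -0.45 [-0.66, -0.24]. TYMS, SHMT1 and DUT had both 5FdUR libraries below both RTX libraries, as had 23.0% of genes. For SHMT2 the difference was -0.02 [-0.12, 0.07] in RIPctr and -0.20 [-0.27, -0.13] in TS-RIP, for TK1 -0.07 [-0.18, 0.05] and -0.10 [-0.19, -0.01], and for DTYMK -0.09 [-0.36, 0.18] and -0.07 [-0.28, 0.14]. The sign for SHMT2 in RIPctr turned to 0.01 with libraries scaled to the same total and to 0.05 in the 50% subsample.

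**Figure D2:**
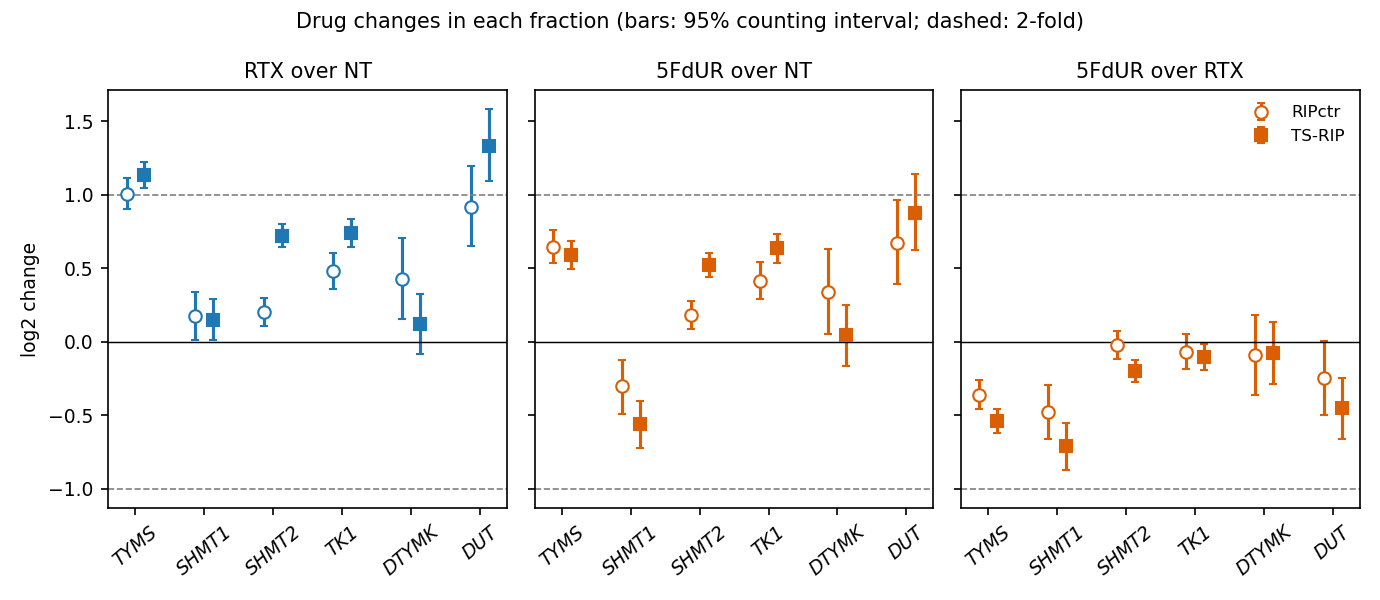
Log2 change of each gene for RTX over NT, 5FdUR over NT and 5FdUR over RTX, with open circles for RIPctr, filled squares for TS-RIP, bars for the 95% counting interval and dashed lines at 2-fold. TYMS passes 2-fold in both fractions under RTX (1.01 and 1.13), and all 12 points of 5FdUR over RTX lie below 0.

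The next question was whether the 6 mRNAs came down with TS beyond the bead control. None did by the test over the 3 treatments. With limma on log2(value + 100), treatment as a block and 3 pairs, 0 of 6 members passed an adjusted p of 0.05 among 13479 genes, of which 2.33% were called higher and 6.17% lower. Scaled to the same total, 67 genes were higher and 460 lower, in place of 314 and 831. At an unadjusted p under 0.05 there were 2 members by limma (TK1 and DTYMK), and the same 2 by edgeR and by DESeq2, both of which called 0 after adjustment. TYMS, TK1 and DTYMK were above RIPctr in each of the 3 treatments, as were 23.1% of genes. The median log2 ratio was 0.15 for the members and -0.01 for all genes.

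TYMS, the mRNA of the precipitated protein, had a TS-RIP ratio of 0.10 [-0.01, 0.21] in NT, 0.22 [0.14, 0.31] under RTX and 0.04 [-0.06, 0.14] under 5FdUR, on the log2 scale. Its mean over the 3 treatments was 0.12 ± 0.09 (SD, n = 3 pairs; limma adjusted p = 0.49), higher in 3 of 3 treatments and at the 68.5th percentile of all genes. In NT, without a drug, TYMS stood at the 58.6th percentile. The study's own comparison, run for each treatment separately, put TYMS slightly below RIPctr in NT and under 5FdUR, and above it under RTX. These ratios depended on the scaling. With libraries scaled to the same total they were 0.19 in NT, 0.11 under RTX and -0.04 under 5FdUR, so that NT was then highest. In the 50% subsample the sign under 5FdUR turned as well, to -0.01.

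DTYMK had the highest mean ratio of the members, 0.40 ± 0.17 (SD, n = 3 pairs; limma adjusted p = 0.0524), with 0.61 [0.36, 0.86] in NT, 0.30 [0.06, 0.53] under RTX and 0.31 [0.06, 0.56] under 5FdUR. It missed the threshold narrowly, at the 95.2th percentile of all genes. Over 10 other settings with all 3 pairs its adjusted p ran from 0.0273 to 1.00, and it passed in 3 of them (pseudocount 1000, no filter on low values, 50% subsample). DTYMK was also the gene with the shortest longest transcript of the 6, 1051 nt, at the 3.90th percentile of 12157 protein-coding genes, whose median was 3659 nt. The part of length in its ratio was not tested.

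TK1 followed with 0.27 ± 0.14 (SD, n = 3 pairs; limma adjusted p = 0.125), higher in 3 of 3 treatments, and 0.11 [-0.01, 0.23], 0.37 [0.27, 0.47] and 0.33 [0.22, 0.44] in NT, RTX and 5FdUR. SHMT2 had opposite signs, at -0.11 [-0.20, -0.02] in NT, 0.41 [0.32, 0.49] under RTX and 0.23 [0.14, 0.32] under 5FdUR, and a mean of 0.17 ± 0.26 (SD, n = 3 pairs; limma adjusted p = 0.385). Without the NT pair, 3 members were called higher by limma, SHMT2 (0.32, adjusted p = 0.000326), TK1 (0.35, adjusted p = 0.000148) and DTYMK (0.30, adjusted p = 0.0389). That fit called 1864 of 13629 genes higher and 2151 lower. It rests on 2 pairs, so its p-values lean on the error borrowed from other genes.

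SHMT1 and DUT were close to the bead control. SHMT1 had a mean of 0.02 ± 0.14 (SD, n = 3 pairs; limma adjusted p = 0.92), with 0.12 [-0.04, 0.27], 0.09 [-0.06, 0.24] and -0.14 [-0.33, 0.05] in NT, RTX and 5FdUR. DUT had -0.01 ± 0.21 (SD, n = 3 pairs; limma adjusted p = 0.96), with -0.22 [-0.52, 0.08], 0.19 [-0.02, 0.41] and -0.02 [-0.26, 0.23]. The direction of either mean turned under other settings.

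By size alone, at 1.5-fold within a treatment, DTYMK in NT was the 1 member counted as higher (1.52-fold, from 200 fragments in RIPctr and 409 in TS-RIP), against 4.37% of 13301 genes. No member was counted as lower in NT (9.80% of genes), or in either direction under RTX (4.27% and 14.7% of 13540) or 5FdUR (3.03% and 15.1% of 13776). Scaled to the same total, the genes counted were 901 higher and 1062 lower in NT, in place of 581 and 1304, and 314 and 2518 under RTX, in place of 578 and 1985. With the filter at a mean of 5000 they were 181 and 477 of 10292 genes in NT, 267 and 621 of 10353 under RTX, and 116 and 629 of 10416 under 5FdUR. With a pseudocount of 1000 they were 285 and 913 in NT, 316 and 1463 under RTX, and 193 and 1468 under 5FdUR. The members counted were the same under these 3 settings.

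**Figure D3:**
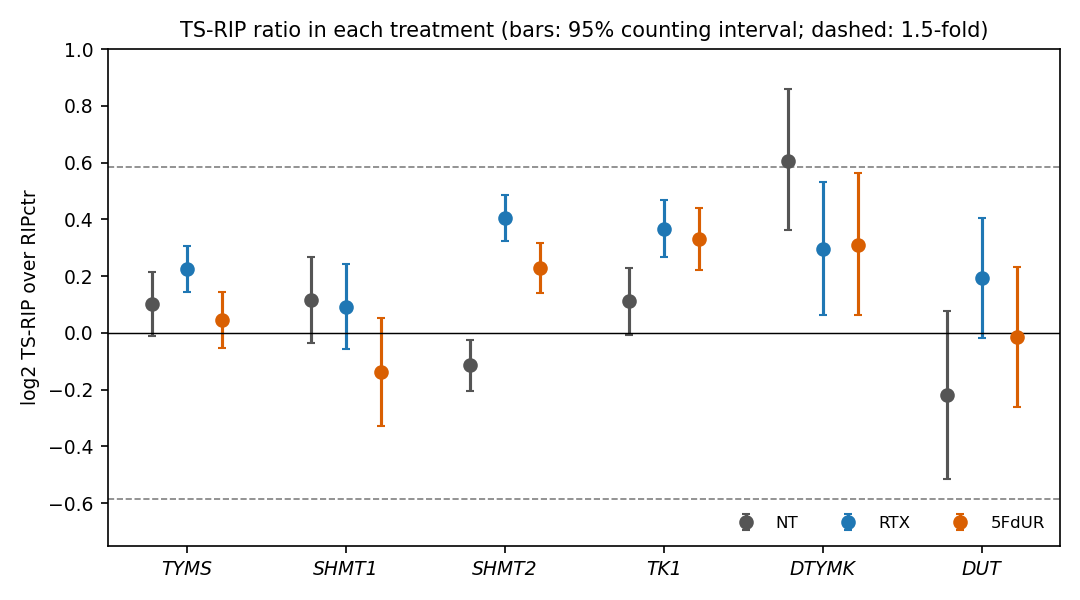
Log2 ratio of TS-RIP over RIPctr for each gene in NT (grey), RTX (blue) and 5FdUR (orange), with 95% counting intervals and dashed lines at 1.5-fold. DTYMK in NT, at 0.61, is the point past the dashed line, and SHMT2 lies below 0 in NT and above 0 under both drugs.

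Whether a drug moved the TS-RIP ratio of a member was compared as the difference of ratios, with 1 pair on each side and no test. No member shifted by 1.5-fold under RTX (7.76% of 13420 genes shifted up and 13.8% down) or 5FdUR (9.11% and 15.4% of 13511). For SHMT2 it was 0.52 [0.40, 0.64] under RTX and 0.34 [0.22, 0.47] under 5FdUR, at the 90.0th and 80.4th percentiles of all genes. For TK1 it was 0.26 [0.10, 0.41] and 0.22 [0.06, 0.38], and for DUT 0.41 [0.05, 0.77] and 0.20 [-0.17, 0.58]. For TYMS it was 0.12 [-0.01, 0.26] under RTX and -0.06 [-0.20, 0.09] under 5FdUR, so that its ratio was lower with 5FdUR than with RTX by -0.18 [-0.31, -0.05]. DTYMK lay on the other side of 0 from SHMT2, at -0.31 [-0.65, 0.02] and -0.30 [-0.64, 0.05]. SHMT1 stood at -0.02 [-0.23, 0.19] and -0.25 [-0.49, -0.01]. These differences depended on the scaling. With libraries scaled to the same total, the differences under RTX and 5FdUR were 0.31 and 0.17 for SHMT2, -0.52 and -0.47 for DTYMK, and 0.05 and 0.04 for TK1. That of TYMS then lay below 0 under both drugs, at -0.08 and -0.23, and that of SHMT1 under RTX was 0.18 in the 50% subsample.

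Levels between genes were compared per kb of the longest transcript. The mean over the 6 libraries was 123404 scaled fragments per kb for TYMS, 111583 for SHMT2 and 91757 for TK1, and 30264 for DTYMK, 27109 for SHMT1 and 14373 for DUT. The first 3 genes lay above the other 3 in every library, the lowest of them being TK1 at 66381 in NT RIPctr and the highest of the others DTYMK at 35941 in RTX TS-RIP. Within each trio neighbours overlapped. Under RTX the level per kb of TYMS (154844 and 180957) was above that of SHMT2 (109157 and 144567) in both fractions. With the median transcript length in place of the longest, TK1 (145927) came before SHMT2 (119982), and DUT (27848) came close to SHMT1 (28110). DUT has the most annotated pseudogenes of these genes, 8, and their effect on its level was not tested.

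**Figure D4:**
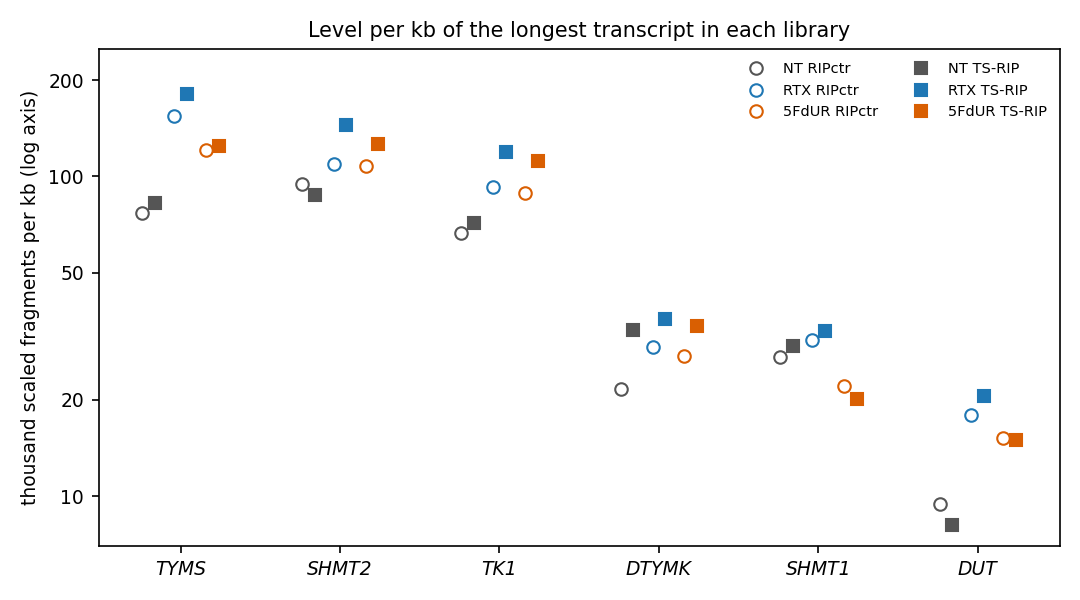
Scaled fragments per kb of the longest transcript (divided by 1000, on a log axis) in each library, with open circles for RIPctr, filled squares for TS-RIP and colours for the treatment. TYMS, SHMT2 and TK1 stay above 66381 per kb, and DTYMK, SHMT1 and DUT stay below 35941.

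Genes that shared a locus with a member lay on the opposite strand, except MIR6778 within SHMT1, which was listed at 0 in all libraries, and counting was strand-aware. ENOSF1 overlaps the 3′ end of TYMS by 3261 nt. It was read as 37158, 46667 and 38156 in RIPctr and 36126, 47507 and 45745 in TS-RIP, a smaller spread than that of TYMS. TYMSOS, a noncoding RNA that starts beside TYMS and had 2 entries, was read in the larger of them as 684, 2738 and 3543 and as 1530, 1831 and 4585. The NT value was lowest in each fraction and, unlike for TYMS, the 5FdUR value highest. At 85.0 to 136.3 per fragment these values rest on few fragments, and NT and RTX lay close in TS-RIP. SMCR8, which overlaps SHMT1 by 197 nt, was read as 79444, 42436 and 45242 and as 95033, 38256 and 41261, highest in NT where SHMT1 was not. The partners of SHMT2 and DUT did not exceed 797 in any library, and TK1 and DTYMK had none.

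Genes with the most similar profile were sought among 9155 non-members with a mean above 10000, by the root mean square difference of log2 values over the 6 libraries after centring each gene. For TYMS the nearest were RFC2, a subunit of the clamp loader of DNA replication (0.08), UBE2T, a ubiquitin-conjugating enzyme of the Fanconi pathway (0.09), SNORA17A, a small nucleolar RNA (0.09), DSN1, a kinetochore protein (0.10), and TFR2, a transferrin receptor (0.10). RFC2 was read as 45364, 85868 and 65682 in RIPctr and 46326, 107830 and 80528 in TS-RIP, with the same order of treatments as TYMS. DUT stood at 0.11 from TYMS, with 11 of the 9155 genes closer. For DUT the nearest were CEP78, a centrosomal protein (0.05), CDC6, which loads the replicative helicase (0.08), and GINS1, a subunit of that helicase (0.08). SHMT2 and TK1 formed the other close pair, at 0.11, with 140 genes closer to SHMT2 and 162 closer to TK1. Nearest to SHMT2 were SORD, NUP93 and CRTC2 (0.04 to 0.05), nearest to TK1 were SNRNP70, PPP5C and GSTK1 (0.03 to 0.04), nearest to DTYMK were VEGFB, ALKBH5 and MCRS1 (0.06 to 0.07), and nearest to SHMT1 were POMT2, IMPACT and SCARA3 (0.06 to 0.07). SHMT1 was the member farthest from TYMS, at 0.47.

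The other genes of nucleotide and folate metabolism were taken as a list of 32, of which 31 were matched and tested. Under RTX, 6 were higher by 2-fold in both fractions and 3 lower, against 5.33% and 3.61% of all genes. The median was 0.31 over both fractions, beside 0.54 for the 6 members and -0.02 for all genes. Among those counted as higher were GGH, which trims folate polyglutamates (2.03 in RIPctr and 1.55 in TS-RIP), and CMPK1, a pyrimidine monophosphate kinase (1.58 and 1.56). Under 5FdUR, 7 were higher and 1 lower, against 10.0% and 7.75% of all genes, with a median of 0.19 beside 0.44 for the members. Those counted as higher included GGH (2.07 and 1.74), RRM2B, a p53-induced ribonucleotide reductase subunit (1.89 and 1.85), and CMPK1 (1.76 and 1.83). Between 5FdUR and RTX 0 of 31 reached 2-fold (1.04% of all genes higher, 0.352% lower). At 1.5-fold RRM2B, CDA and NT5E were higher under 5FdUR (4.13% of all genes) and UNG lower (2.74%). The median was -0.06, beside -0.23 for the members.

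In TS-RIP against RIPctr, limma called 1 of the 31 higher, the ecto-nucleotidase NT5E (0.36, 0.37 and 0.39 in NT, RTX and 5FdUR; adjusted p = 0.0372), and 1 lower, the thymine DNA glycosylase TDG (-0.21, -0.64 and -0.80; adjusted p = 0.0408), against 2.33% and 6.17% of all genes. Over 10 other settings with all 3 pairs the adjusted p of NT5E ran from 0.0259 to 1.00 and passed in 4, and that of TDG ran from 0.00841 to 0.926 and passed in 2. Neither passed without the RTX pair or without the 5FdUR pair.

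A list of 33 S phase genes, 31 matched, was set beside the members because TYMS, TK1, DTYMK and DUT are known to be expressed in S phase. Under RTX its median was 0.57, close to the 0.54 of the members. By 2-fold 3 genes were higher and 0 lower, against 5.33% and 3.61% of all genes. Under 5FdUR its median was -0.05 beside 0.44 for the members, with 3 higher (PCNA, CCNE2, RFC5) and 3 lower (E2F2, CHAF1A, UHRF1). These counts were near the shares of all genes, 10.0% and 7.75%. For 5FdUR over RTX the median of the list was -0.43 beside -0.23. In both fractions 29 of 31 were lower, as were all 6 members and 37.0% of all genes. The 2 that reached 2-fold lower were CHAF1A and UHRF1, against 0.352% of all genes.

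**Figure D5:**
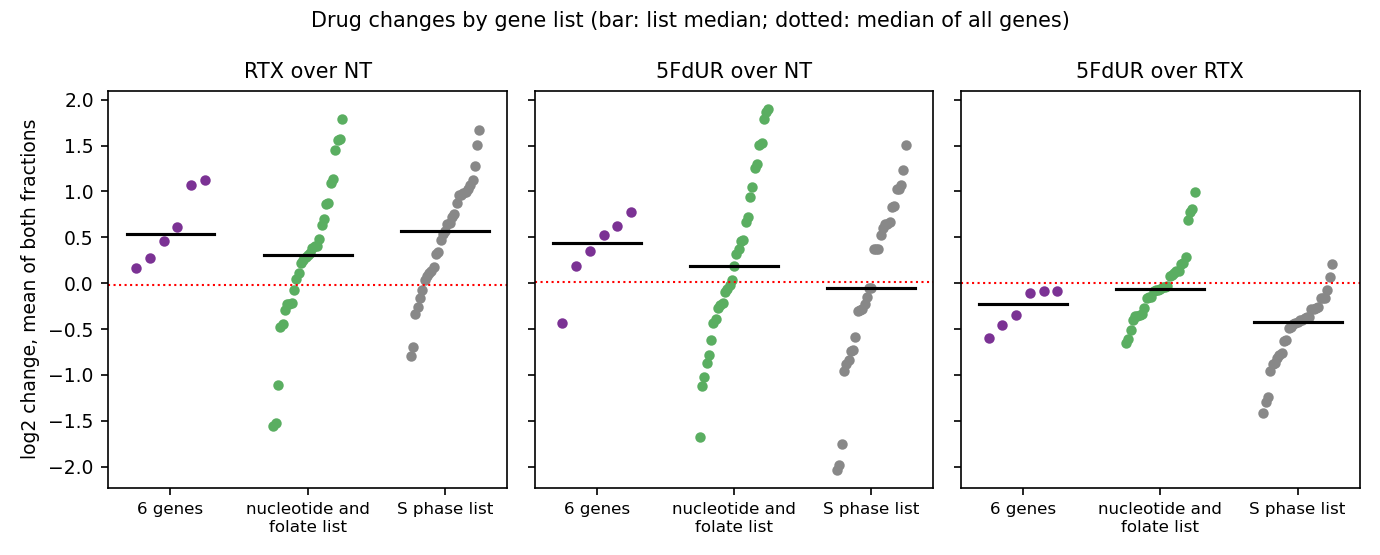
Log2 change, as the mean of both fractions, of the 6 members (purple), 31 other genes of nucleotide and folate metabolism (green) and 31 S phase genes (grey), with a bar at each list's median and a dotted line at the median of all genes. Under RTX the medians are 0.54, 0.31 and 0.57, and for 5FdUR over RTX they are -0.23, -0.06 and -0.43.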

How the data were processed

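RNA of 6 libraries was sequenced by the authors after rRNA depletion, as paired reads on a stranded kit. Per the study's methods the reads were trimmed with fastp, cleared of rRNA with BWA, aligned to GRCh38 with HISAT2, kept where unique, and counted with the Cufflinks suite on GENCODE 34 without length correction. Versions are not given in the sources used here. The deposited values are a signal, scaled fragment counts with geometric library scaling that was run jointly with libraries of another series. At least 99.96% of values were whole multiples of the value of 1 fragment within 0.05, so fragments were recovered by division. A mean of 500 was 3.67 to 5.88 fragments. The plan had assumed FPKM, and 25 other columns were not used, among them the authors' means and SDs.

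Log2 ratios used value + 100. Fold thresholds were 1.5 for TS-RIP ratios (mean above 500) and 2 for drugs (mean above 1000), with exact Clopper-Pearson intervals for ratios, Poisson intervals for levels and normal approximations for shifts. Limma 3.58.1 in R 4.3.3 (trend, treatment block, 2 residual degrees of freedom, Benjamini-Hochberg adjusted over all genes) pooled the 3 treatments, with edgeR 4.0.16 and DESeq2 1.42.0 on recovered fragments as alternatives. The fit was tried on simulated data with changes larger than the mean ratio of any member. There the true ratio of a gene was the same in all treatments, and its values differed by noise drawn for each library, wider than counting noise. The trial therefore does not show how the fit performs at the size of the members' ratios. p-values are two-sided and rest on the spread of the ratio between treatments. In limma the error of each gene is drawn toward that of genes of similar level. The p-values therefore do not follow from the SD printed beside them. Treatment is the pairing, since both libraries of a treatment share a lysate. Entries matched GENCODE 44 by gene identifier in 99.6% of cases. Named genes were all members, their nearest profiles (5 for TYMS, 3 otherwise), genes on their loci and at most 4 listed genes per comparison, some of which are not reported here. The members and lists were chosen with earlier results of these data known.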

Additional observations from a re-analysis of the deposited data

Results flagged for a closer look

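Members were picked out where 2 treatments moved a value in opposite directions with both counting intervals clear of 0. In each case there was 1 library per group, and the difference itself was not tested.

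SHMT1 was higher than NT under RTX and lower under 5FdUR in both fractions. The log2 change was 0.17 and -0.30 in RIPctr, and 0.15 and -0.56 in TS-RIP. The RTX change was 0.05 in TS-RIP with libraries scaled to the same total, and 0.08 in RIPctr in the 50% subsample.

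The TS-RIP ratio of SHMT2 was -0.11 in NT, and 0.41 under RTX and 0.23 under 5FdUR. With libraries scaled to the same total the NT value was -0.02, and those of RTX and 5FdUR were 0.29 and 0.14.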

How the results depend on the processing

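Over the 3 treatments, limma called 314 genes higher and 831 lower in TS-RIP, and 0 members. The higher count was 207 with a pseudocount of 1, 67 with libraries scaled to the same total and 139 in the 50% subsample. The lower count was 1414 without a filter on low values, 444 with the filter at 5000, 460 with the same total, 475 in the subsample and 419 by DESeq2. eBayes without trend gave 0 higher and 215 lower, with 2683 genes at an unadjusted p under 0.05. Without the replicate block, that is without pairing by treatment, it was 0 and 47, with 736 at that p, and 0 members. Leaving out 1 pair gave 5 to 1864 higher (5 without RTX, 83 without 5FdUR, 1864 without NT) and 373 to 2151 lower. Members called higher were 1 (DTYMK) with a pseudocount of 1000, without a filter and in the subsample, and 0 to 3 with a pair left out. The mean ratio of SHMT1 turned to -0.0116 with the same total and ran from -0.0230 to 0.104 with a pair left out, and that of DUT turned to 0.0156 by edgeR and 0.0279 by DESeq2, and ran from -0.117 to 0.0884. For DTYMK in NT the count was 0 at 2-fold. For RTX over NT the count of higher members was 2 with the same total and at 1.5-fold, and 0 in the subsample. For 5FdUR over NT it was 2 at 1.5-fold. The same-total scaling moved the median of all genes by -0.11 to 0.13 on the log2 scale, depending on the comparison. The other counts of members stayed within 1.5 times, and the causes were not tested.

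The members rest on 178 to 3236 fragments per library, and DUT and DTYMK on the fewest. With 1 culture per treatment, a drug change and a difference between cultures cannot be told apart. Both fractions of a treatment share a culture, so their agreement says nothing of the spread between cultures.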
